A study of Mus musculus with 48 samples.

Results

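A set of 6 genes best known from the liver was followed across mouse kidneys that differed in genotype, dietary phosphate and sex: the carboxylesterase genes Ces1d, Ces1f and Ces1g, the vitamin C synthesis gene Gulo, the fatty acid binding protein gene Fabp1 and the albumin gene Alb. They are 6 of the 18193 genes named on the arrays. The members were all probe sets annotated to these symbols, 9 in number and all on the 430A chip: 3 for Ces1d, 2 for Fabp1 and 1 for each of the others. The genes were chosen in part by their signal, which was low and higher in Hyp than in normal kidneys. For that reason every Hyp against normal difference of these genes is given as a description with its standard error and no test.

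Kidney RNA was measured on Affymetrix arrays in a balanced design of 3 factors at 2 levels each, with 24 pools in 8 groups of 3 pools. Each pool combined RNA of 3 mice, 72 mice in all, and was hybridised to a 430A and a 430B chip, 48 arrays in total. The groups were normal males, Hyp males, normal females and Hyp females, each on the control diet (Teklad TD86129) or on the low phosphorus diet (Teklad TD 86128), fed with deionized water for 3 days to mice 10 weeks old. The Hyp mutation lies in Phex, a gene on the X chromosome, and is inherited, not induced in 1 cell type, and the labels do not say whether Hyp females carried a normal copy. The labels name the strain for a normal female pool alone, as C57BL/6J, and name the tissue as kidney. The replicates are pools, so the p-values describe the spread between pools and not between single animals.

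Class 1 carboxylesterases are enzymes of the endoplasmic reticulum that cut ester bonds in lipids and drugs, and their genes lie side by side in a cluster that is active mainly in liver. Gulo, L-gulonolactone oxidase, carries out the last step of vitamin C synthesis. Fabp1 encodes the liver fatty acid binding protein, and albumin is the main plasma protein made by hepatocytes, which the kidney's proximal tubule takes back from the filtrate. Loss of Phex raises the bone hormone FGF23, so that the kidney wastes phosphate, while a low phosphate diet makes a normal kidney retain it.

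The promoters of Fabp1, Alb and Ces1g are shown because these are the genes with RefSeq promoter entries here, and because Ces1g and Fabp1 had some of the largest differences between groups. Each run is the 250 bases before the transcription start, 5′ to 3′ on the gene's strand, from RefSeq on build GRCm38.p6. Fabp1 is on chr6:71199629-71199878 (+), Alb on chr5:90460620-90460869 (+) and Ces1g on chr8:93337210-93337459 (-). Capitals mark GTTAAT (reverse complement ATTAAC), the half-site of the liver factor HNF1, and TGACCT, the reverse complement of the nuclear receptor half-site AGGTCA.
Fabp1: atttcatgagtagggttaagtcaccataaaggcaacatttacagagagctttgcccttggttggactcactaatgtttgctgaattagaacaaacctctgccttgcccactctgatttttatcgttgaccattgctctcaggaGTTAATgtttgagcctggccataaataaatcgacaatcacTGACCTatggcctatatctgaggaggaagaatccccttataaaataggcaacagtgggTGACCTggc
Alb: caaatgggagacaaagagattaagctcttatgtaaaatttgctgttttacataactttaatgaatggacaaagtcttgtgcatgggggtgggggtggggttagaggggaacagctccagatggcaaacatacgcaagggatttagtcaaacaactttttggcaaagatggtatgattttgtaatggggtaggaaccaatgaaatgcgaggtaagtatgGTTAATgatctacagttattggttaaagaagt
Ces1g: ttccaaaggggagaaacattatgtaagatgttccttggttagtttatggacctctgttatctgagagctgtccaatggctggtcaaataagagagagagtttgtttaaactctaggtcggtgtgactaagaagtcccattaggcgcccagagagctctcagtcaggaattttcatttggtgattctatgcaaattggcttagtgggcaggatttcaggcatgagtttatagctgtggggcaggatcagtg

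The Fabp1 window held GTTAAT from base 107 to base 102 before the start, and TGACCT from base 67 to 62 and from base 9 to 4. The Alb window held GTTAAT from base 32 to base 27 before the start. Neither motif was found on either strand of the Ces1g window, which says only that these letters are not in it. Among 32851 promoters of the same length, 6.43% held GTTAAT or its complement and 14.0% held AGGTCA or its complement. The motifs do not overlap each other in these windows, and a match is a description of letters, not a binding site.

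All signals below are linear array units, and levels are compared only within a probe set. The share of all features whose pools do not overlap is given only for 12 pools against 12. Separations of fewer pools are descriptions, and nothing is read from them. A difference is a log2 difference of group means after signals under 1 were set to 1, followed by ± its standard error. Adjusted p-values come from limma with Benjamini-Hochberg adjustment over 18642 features, at a threshold of 0.05, and the words rose and fell are kept for genes that passed. The median signal of a 430A array, used as a yardstick for low signal, lay between 164.6 and 211.1. Pools of the same group correlated across features at r = 0.923 to 0.946. The kidney label was borne out by its markers: all 8 proximal tubule genes and all 5 other nephron genes measured were above the array median on all 24 arrays. Fewer cells of a type and less RNA per cell cannot be told apart in these pools.

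The members differed widely in how far they stood above the array median. Ces1d and Ces1f exceeded it on all 24 arrays with each of their probe sets, and Alb on 22. Ces1g exceeded it on 10 arrays, of which 9 were male and 7 were Hyp. Gulo exceeded it on 9 arrays and Fabp1 on 7, all of them Hyp, so both passed the filter on low signal, which asked for 3 arrays above the median, only through Hyp pools. Of the 7 Fabp1 arrays 6 were female, so Fabp1 passed only through female pools, and Ces1g only through male pools. The second Fabp1 probe set exceeded it on 1 array and did not pass.

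**Figure D1:**
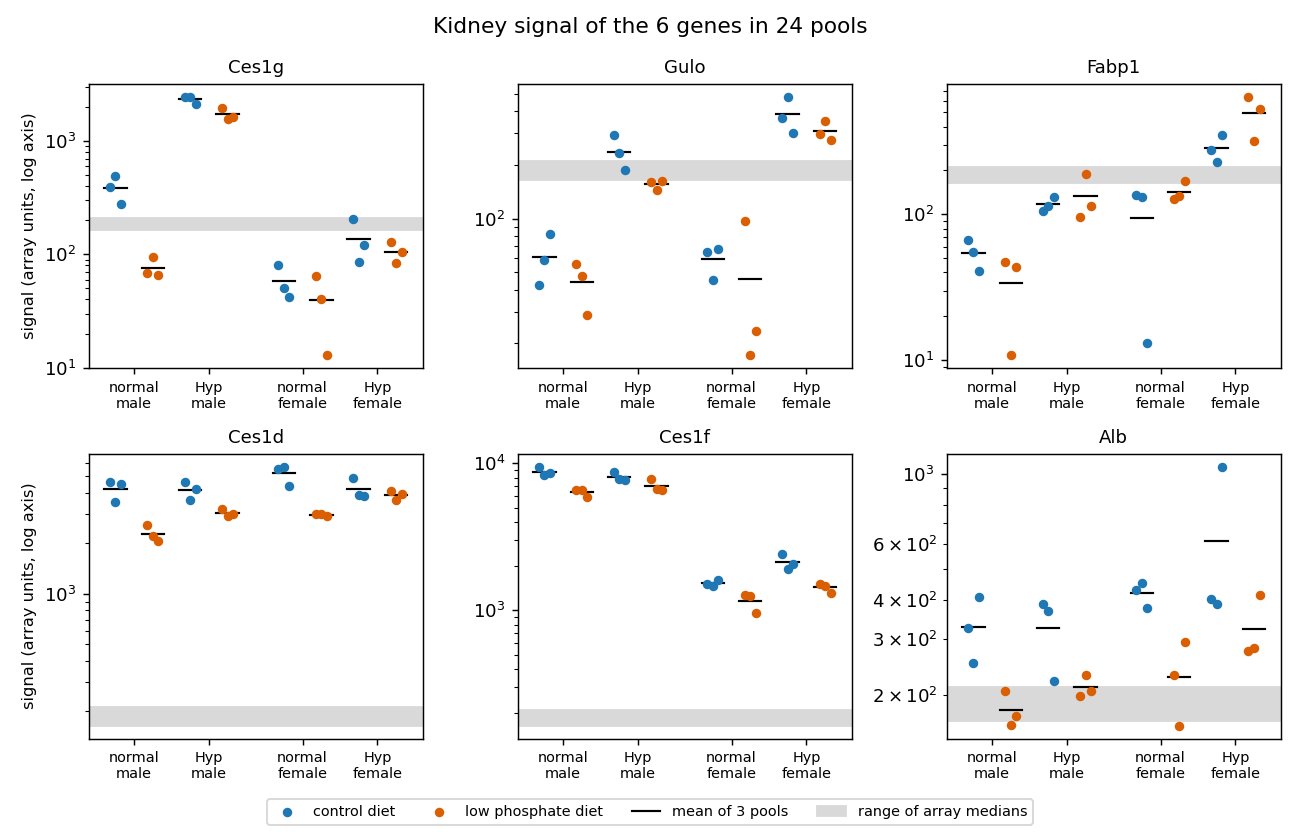
Signal of the representative probe set of each gene (array units, log axis) in each of the 24 pools, by genotype and sex, with blue points for the control diet, orange points for the low phosphate diet, a bar at the mean of 3 pools and a grey band for the range of 430A array medians (164.6 to 211.1). Gulo points of Hyp pools lie above all those of normal pools, Ces1f separates males from females, and Ces1g is highest in Hyp males.

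Ces1g, a carboxylesterase that hydrolyses lipid esters, had its highest signals in Hyp males and its lowest in normal females. In normal males it was 395.4, 489.6 and 277.1 on the control diet and 68.0, 94.7 and 65.6 on the low phosphate diet. In Hyp males it was 2479.4, 2438.1 and 2131.3 on the control diet and 1971.1, 1560.2 and 1647.5 on the low phosphate diet. Every Hyp male pool stood above every normal male pool, and within normal males the low phosphate pools all lay below the control pools and below the array medians.

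Female Ces1g signals were far lower. In normal females they were 80.7, 50.2 and 42.4 on the control diet and 64.5, 40.4 and 12.8 on the low phosphate diet. In Hyp females they were 204.8, 85.8 and 120.9 on the control diet and 128.1, 84.4 and 105.1 on the low phosphate diet. Only a single Hyp female pool exceeded its array's median, so the female differences rest on low signal.

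In descending order the Ces1g group means were 2350 ± 190.2 (SD, n = 3) in Hyp males on the control diet, 1726 ± 216.5 in Hyp males on low phosphate and 387.4 ± 106.5 in normal males on the control diet, with no overlap between these neighbours or with the next group. The other 5 groups, with means of 137.2, 105.9, 76.1, 57.77 and 39.23, overlapped their neighbours in this order. Across all Hyp pools the mean was 1080 ± 1035 (SD, n = 12), and across all normal pools 140.1 ± 157.2. These pools overlapped, and nothing is read from the separation of the genotypes within a sex. The Hyp minus normal difference, which helped choose the gene, was 2.51 ± 0.21 on average. It was 2.64 ± 0.41 in males on the control diet, 4.52 ± 0.41 in males on low phosphate, 1.21 ± 0.41 in females on the control diet and 1.70 ± 0.41 in females on low phosphate.

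Gulo signals stayed under 100 in all normal pools. They were 42.7, 58.4 and 81.5 in normal males on the control diet and 55.3, 47.7 and 28.9 on low phosphate. In normal females they were 64.6, 45.3 and 67.9 on the control diet and 96.5, 17.1 and 23.5 on low phosphate. These 4 normal groups overlapped each other, and no normal pool exceeded its array's median.

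Hyp pools had higher Gulo signals. Males had 293.8, 232.0 and 186.0 on the control diet and 160.4, 144.3 and 161.9 on low phosphate. Females had 367.3, 482.7 and 302.9 on the control diet and 298.2, 350.5 and 275.1 on low phosphate. The 12 Hyp pools, from 144.3 to 482.7, did not overlap the 12 normal pools, from 17.1 to 96.5. Of all features, 0.0483% showed no overlap between the genotypes, and nothing is read from this because genotype chose the gene.

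Gulo means were 271.3 ± 100.7 (SD, n = 12) in Hyp pools and 52.45 ± 23.4 in normal pools, a difference of 2.43 ± 0.21. With 50 added to each signal before log2 the difference was 1.62 ± 0.11, so its size depends on how low signal is treated. In order of group means, Hyp females on the control diet (384.3) and on low phosphate (307.9) overlapped, as did Hyp females on low phosphate and Hyp males on the control diet (237.3). Hyp males on low phosphate (155.5) overlapped none of the groups next to them.

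Fabp1, the carrier of fatty acids in the cytosol, was highest in Hyp females. Its main probe set read 277.1, 228.9 and 350.1 in Hyp females on the control diet and 641.7, 315.9 and 530.2 on low phosphate. Normal females had 136.2, 132.4 and 13.2 on the control diet and 128.1, 133.0 and 168.5 on low phosphate. All 6 Hyp female pools exceeded all 6 normal female pools, and a single normal female pool at 13.2 stood far under the rest of its group.

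In males Fabp1 was lower. Hyp males had 105.2, 114.7 and 131.7 on the control diet and 96.2, 189.4 and 115.0 on low phosphate. Normal males had 66.3, 55.4 and 41.1 on the control diet and 47.3, 10.8 and 43.4 on low phosphate. Only 1 male pool, a Hyp pool at 189.4, exceeded its array's median, while Hyp and normal male pools did not overlap.

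Over both sexes the Fabp1 signals of Hyp and normal pools overlapped. Nothing is read from their separation within a sex, because genotype helped choose the gene. Means were 258 ± 177.2 (SD, n = 12) in Hyp pools and 81.31 ± 54.61 in normal pools, a difference of 1.81 ± 0.32. With 50 added it was 1.16 ± 0.15. The second probe set, which lay between 1.7 and 245.0, gave 2.25 ± 0.50 in a fit of all probe sets without the filter. The Hyp minus normal difference of the main probe set was 1.13 ± 0.64 in males on the control diet, 2.19 ± 0.64 in males on low phosphate, 2.18 ± 0.64 in females on the control diet and 1.74 ± 0.64 in females on low phosphate.

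Ces1d, also known as triacylglycerol hydrolase, was well above the array median everywhere and was lower on the low phosphate diet. Normal males had 4641.4, 3521.0 and 4535.8 on the control diet and 2557.0, 2209.8 and 2056.1 on low phosphate. Normal females had 5510.1, 5718.3 and 4415.9 on the control diet and 2983.6, 2974.1 and 2921.9 on low phosphate. In both sexes of normal mice every low phosphate pool lay below every control pool.

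In Hyp kidneys the diets lay closer together for Ces1d. Hyp males had 4625.0, 3623.0 and 4187.9 on the control diet and 3197.3, 2928.8 and 2997.6 on low phosphate. Hyp females had 4915.1, 3866.2 and 3812.3 on the control diet and 4124.0, 3612.1 and 3943.8 on low phosphate. The diets did not overlap in Hyp males and overlapped in Hyp females.

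The mean of the 4 groups on the control diet ranged from 4145 to 5215 for Ces1d, each overlapping its neighbours. Normal males on low phosphate were lowest at 2274 ± 256.6 (SD, n = 3), with no overlap with normal females on low phosphate (2960 ± 33.22). The average Hyp minus normal difference was 0.12 ± 0.07. It was -0.03 and -0.31 (± 0.14 each) in males and females on the control diet, and 0.42 and 0.39 (± 0.14 each) in males and females on low phosphate.

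Ces1f, a close relative of Ces1d in the same cluster on chromosome 8, separated the sexes. Its probe set carries the suffix for probes shared by several transcripts, so signal from paralogs cannot be told apart. Normal males had 9479.8, 8294.2 and 8527.4 on the control diet and 6546.0, 6545.0 and 5920.5 on low phosphate. Hyp males had 8693.0, 7808.9 and 7752.0 on the control diet and 7794.0, 6723.3 and 6536.1 on low phosphate. The low phosphate pools lay below the control pools in normal males, while a single Hyp male pool on low phosphate reached the range of its controls.

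Female Ces1f signals began below the lowest male value. Normal females had 1510.4, 1466.1 and 1613.3 on the control diet and 1277.7, 1260.9 and 953.8 on low phosphate. Hyp females had 2423.4, 1905.8 and 2051.7 on the control diet and 1520.0, 1463.0 and 1315.6 on low phosphate. In both female genotypes every low phosphate pool was below every control pool. The average Hyp minus normal difference was 0.20 ± 0.06, with 0.01 ± 0.09 in males and 0.39 ± 0.09 in females.

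Alb signals were modest, and 1 pool stood apart. Normal males had 324.7, 252.0 and 407.3 on the control diet and 205.8, 160.8 and 171.6 on low phosphate. Normal females had 429.0, 452.7 and 376.8 on the control diet and 230.3, 159.6 and 294.1 on low phosphate. In both sexes of normal mice the diets did not overlap.

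In Hyp mice the diets overlapped for Alb. Hyp males had 386.7, 367.3 and 221.5 on the control diet and 198.6, 230.3 and 205.7 on low phosphate. Hyp females had 400.4, 386.4 and 1054.4 on the control diet and 274.4, 281.3 and 414.2 on low phosphate. The pool at 1054.4, replicate 3 of the Hyp females on the control diet, was more than any other pool. The average Hyp minus normal difference was 0.28 ± 0.15 with it and 0.16 ± 0.12 without it.

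In all, 6 of 6 members had a positive average Hyp minus normal difference, with a median of 1.05 against -0.00 over all features, and 1.95% of all features passed for genotype (1.04% higher). Since high signal in Hyp kidneys helped choose them, nothing is read from these values.

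**Figure D2:**
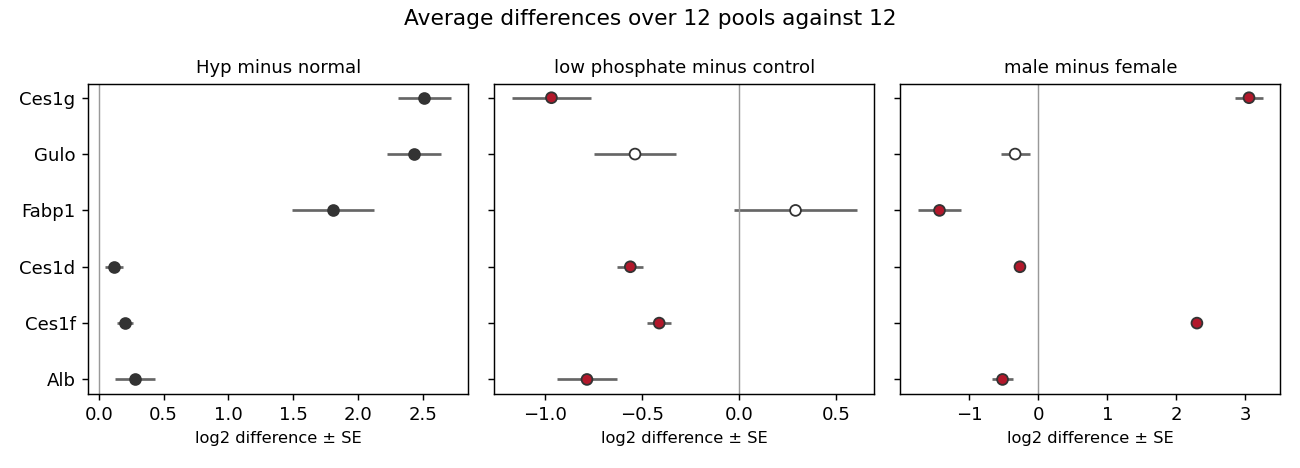
Log2 difference ± standard error of each gene for Hyp minus normal, low phosphate minus control and male minus female, each over 12 pools against 12. Red points passed an adjusted p of 0.05 by limma, open points did not, and dark points in the genotype panel were not tested. Ces1d, Ces1f, Ces1g and Alb fell on low phosphate, and Ces1f and Ces1g were higher in males. Ces1g and Fabp1 passed the filter only through the sex in which they were high, and the diet calls of Ces1g and Alb were lost in the fit of all probe sets without the filter.

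The diet comparison does not use the genotype difference that helped choose the genes, and it was tested. The genes were chosen with earlier results of these data known, so the test cannot be taken as independent of that choice. Of the 6 members 4 fell on the low phosphate diet and none rose, while 0.772% of all features passed (0.354% lower). In the fit of all probe sets without the filter 2 of the 6 passed, Ces1d and Ces1f. The share of all features in that fit is not given, here or below. Without the filter and with 1 probe set a gene, 50 of 28285 features were called higher on low phosphate and 44 lower. Ces1d fell by 0.56 ± 0.07, from 4448 ± 699.8 (SD, n = 12) to 3042 ± 623.1 (adjusted p = 8.18e-05). Ces1f fell by 0.41 ± 0.06, from 5127 to 3988 (adjusted p = 0.000832). Both were lower on low phosphate in all 4 combinations of genotype and sex.

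Alb fell by 0.78 ± 0.15, from 421.6 ± 210.6 (SD, n = 12) to 235.6 ± 72.36 (adjusted p = 0.0134), and stayed past the threshold without any 1 of the 24 pools. Without the filter its adjusted p was 0.0464 with 1 probe set a gene, and it missed the threshold with all probe sets (0.0561). Ces1g fell by 0.97 ± 0.21 (adjusted p = 0.0245). The Ces1g call was lost without the filter (adjusted p = 0.0785, and 0.0896 with all probe sets) and without any 1 of 6 pools. These were Hyp females on the control diet replicate 1 (0.0503), Hyp females on low phosphate replicate 2 (0.0553), Hyp males on low phosphate replicate 2 (0.0505), normal females on the control diet replicate 1 (0.0545), normal males on the control diet replicate 2 (0.0551) and normal males on low phosphate replicate 3 (0.0546).

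Gulo, at -0.54 ± 0.21 (adjusted p = 0.387), and Fabp1, at 0.29 ± 0.32 (adjusted p = 0.862), did not pass for diet. Gulo was lower on low phosphate in 4 of 4 combinations, and without replicate 1 of the normal females on low phosphate, its highest normal pool at 96.5, the difference was -0.72 ± 0.13 (adjusted p = 0.00848). Fabp1 was higher on low phosphate in 3 of 4 combinations. The other Ces1d probe sets had diet differences of -0.62 ± 0.14 and -0.53 ± 0.14 in the fit of all probe sets without the filter, and neither passed there (adjusted p = 0.104 and 0.179).

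**Figure D3:**
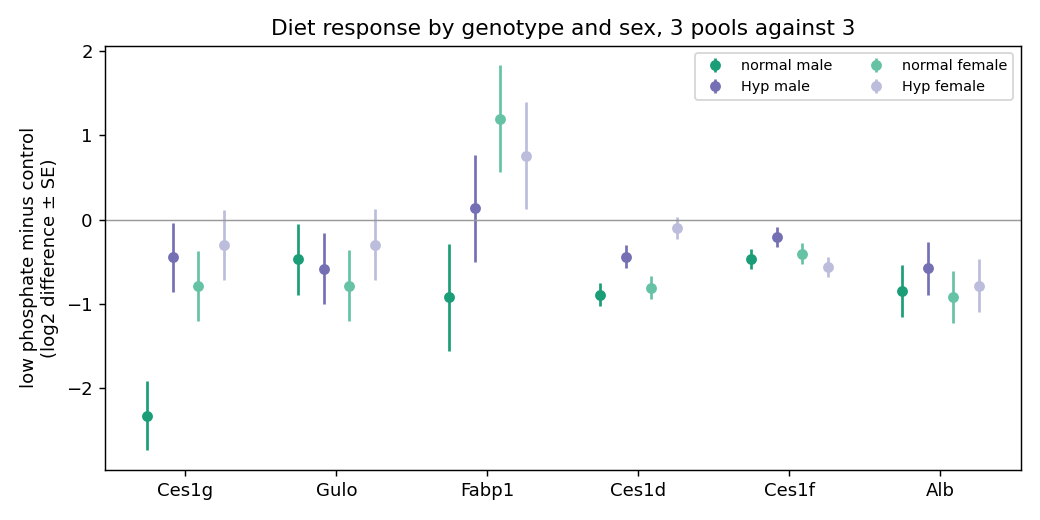
Low phosphate minus control, as a log2 difference ± standard error of 3 pools against 3, for each gene in normal males, Hyp males, normal females and Hyp females. Ces1g in normal males, at -2.33, lies lowest, and Ces1d lies closest to 0 in Hyp females, at -0.10.

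Within normal mice, 3 of the 6 members fell with diet, against 0.467% of all features. Ces1d fell by 0.85 ± 0.10 (adjusted p = 8.71e-05), Ces1g by 1.56 ± 0.29 (0.0126) and Ces1f by 0.44 ± 0.09 (0.0194). In the fit of all probe sets without the filter 1 of the 6 passed, Ces1d, and the calls of Ces1g (0.0572) and Ces1f (0.0687) were lost. Alb, at -0.89 ± 0.22, missed the threshold (adjusted p = 0.0943). In normal males alone 2 of the 6 passed, against 0.15% of all features, and in normal females 1, against 0.102%. The Ces1g change in normal males was a fall of 2.33 ± 0.41 (adjusted p = 0.0151), from signals above the array median to signals below it. That call was lost in the fit of all probe sets without the filter (0.0672). Ces1d fell by 0.89 ± 0.14 in normal males (adjusted p = 0.00405) and by 0.81 ± 0.14 in normal females (adjusted p = 0.0149).

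Within Hyp mice none of the 6 passed limma's threshold for diet (3 did with p-values left unadjusted), against 0.15% of all features. Ces1f was at -0.39 ± 0.09 (adjusted p = 0.114), Alb at -0.68 ± 0.22 (0.514), Ces1g at -0.37 ± 0.29 (0.928) and Ces1d at -0.27 ± 0.10 (0.605). A call in normal mice and none in Hyp mice does not show that the diet responses differ, and the interaction of genotype and diet tests that directly.

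For genotype by diet none of the 6 members passed limma's threshold (2 did with p-values left unadjusted), while 0.0161% of all features passed. The interaction was 0.58 ± 0.14 for Ces1d (adjusted p = 0.353) and 1.18 ± 0.41 for Ces1g (0.788), positive because the fall was smaller in Hyp. Those of Gulo, Fabp1, Ces1f and Alb lay between 0.05 and 0.31. For Ces1d the other probe sets gave interactions of 0.65 ± 0.29 and 0.54 ± 0.27 in the fit without the filter, and neither passed.

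Sex was tested in the same way and under the same limit. Of the 6 members 5 passed, 2 higher in males and 3 higher in females, while 15.8% of all features passed, 6.07% higher in males and 9.78% lower. Ces1g and Fabp1 entered this count through the filter only by the sex in which they were high, so nothing is read from their part in it. In the fit of all probe sets without the filter 4 of the 6 passed. Ces1f was 7552 ± 1091 (SD, n = 12) in males and 1563 ± 396.4 in females, 4.92-fold higher in males (2.30 ± 0.06, adjusted p = 7.77e-17). The male pools, from 5920.5 to 9479.8, and the female pools, from 953.8 to 2423.4, did not overlap, as was so for 1.96% of all features. Ces1g was 1135 ± 986.5 in males and 85.01 ± 50.96 in females. The difference was 3.05 ± 0.21 (adjusted p = 4.68e-10), and 1.47e-08 in the fit of all probe sets without the filter. With 11 of the 12 female pools under the array median, no fold is given.

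Fabp1 was 254.6 ± 182.2 (SD, n = 12) in females and 84.71 ± 49.73 in males, a male minus female difference of -1.43 ± 0.32 (adjusted p = 0.00313). The filter kept it only through female pools, and in the fit of all probe sets without the filter the adjusted p was 0.0116. Its second probe set gave -2.0 ± 0.50 there (adjusted p = 0.0181). Ces1d differed by -0.26 ± 0.07 (adjusted p = 0.00939), with 3423 ± 922.9 in males and 4066 ± 937.1 in females. After each array was scaled to a common median the Ces1d difference was -0.17 (adjusted p = 0.123), and its other probe sets, at -0.09 ± 0.14 and -0.25 ± 0.14, did not pass.

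Alb differed by -0.52 ± 0.15 (adjusted p = 0.026), with 261 ± 86.96 in males and 396.1 ± 225.7 in females. The Alb call was lost with median scaling (-0.42, adjusted p = 0.0872), with quantile normalization (-0.43, 0.0748) and without the filter (0.0571). It was also lost without any 1 of 4 pools: Hyp females on low phosphate replicate 3 (0.0518), Hyp males on the control diet replicate 3 (0.0531), normal females on low phosphate replicate 3 (0.0503) and normal males on the control diet replicate 2 (0.0508). Gulo, at -0.33 ± 0.21, did not pass for sex (adjusted p = 0.333). With 50 added to each signal it was -0.33 ± 0.11 and passed (adjusted p = 0.044). Of all features called for sex, 38.3% were higher in males with the deposited scaling, 63.6% with median scaling and 45.0% with quantile normalization, and no sex difference of a member changed its direction between them.

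Within normal mice 3 of the 6 members passed for sex, against 9.23% of all features, and within Hyp mice 3, against 7.18%. The filter kept Ces1g only through male pools and Fabp1 only through female pools, so nothing is read from their part in these counts. The sex difference within a genotype was largest for Ces1g in Hyp, at 4.11 ± 0.29 (adjusted p = 2.05e-09), with 1.99 ± 0.29 in normal mice (6.99e-05). In the fit of all probe sets without the filter these adjusted p-values were 6.17e-08 and 0.000488. For Ces1f it was 2.49 ± 0.09 in normal mice (adjusted p = 1.1e-14) and 2.11 ± 0.09 in Hyp (4.45e-13). For Fabp1 it was -1.28 ± 0.45 in normal mice (adjusted p = 0.0849) and -1.58 ± 0.45 in Hyp (0.035). In the fit of all probe sets without the filter 2 of the 6 passed in each genotype, Ces1f and Ces1g. There the calls of Fabp1 in Hyp (0.0945) and of Ces1d in normal mice (0.0656) were lost. Gulo had 0.17 ± 0.30 in normal mice and -0.84 ± 0.30 in Hyp, and neither passed.

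For genotype by sex none of the 6 passed limma's threshold (3 did with p-values left unadjusted), while 0.0805% of all features passed. Ces1g came closest, with an interaction of 2.12 ± 0.41 (adjusted p = 0.0557). Without the filter its adjusted p was 0.191 with 1 probe set a gene and 0.282 with all probe sets. It passed with median scaling (2.06 ± 0.39, adjusted p = 0.0412), with a variance trend and robust estimation (0.0174), with p-values adjusted within each chip (0.028) and with 50 added to each signal (2.35 ± 0.22, 1.94e-06). It also passed without replicate 1 of the Hyp females on the control diet (2.29 ± 0.41, adjusted p = 0.0201) and without replicate 3 of the normal females on low phosphate (2.46 ± 0.30, 0.000327), the lowest Ces1g pool at 12.8. All of these settings kept the filter, which Ces1g passed only through male pools, so nothing is read from these calls. Gulo had -1.0 ± 0.42 (adjusted p = 0.758) and Ces1f -0.38 ± 0.12 (0.569).

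For diet by sex no member passed limma's threshold (1 did with p-values left unadjusted). Over all features 0.0% passed, against 1019 features with an unadjusted p below 0.05. Fabp1 had -1.37 ± 0.64 (adjusted p = 0.897) and Ces1g -0.84 ± 0.41 (0.903).

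The genes around each member were described by lists of their pathway, with all features as the background. Of 17 other carboxylesterase genes, 6 were measured, and none passed limma's threshold for genotype or diet (1 and 2 did with p-values left unadjusted). Their median differences were -0.05 for genotype and -0.19 for diet, against -0.00 and 0.01 over all features. For sex Ces1e (0.57 ± 0.10, adjusted p = 0.000496) and Ces1h (0.47 ± 0.13, 0.0217), of the same gene cluster, were higher in males, and the class 2 gene Ces2b (-0.75 ± 0.19, 0.0111) was lower. Ces1c was never above the array median, at 3.8 to 62.3.

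Around Gulo, 11 of 13 genes of ascorbate synthesis, recycling and transport were measured, and none passed limma's threshold for genotype or diet (3 and 3 unadjusted). Their median genotype difference was 0.06. For sex, Ugdh, which makes the glucuronate precursor, rose by 0.31 ± 0.06 in males (adjusted p = 0.00102), and so did Txnrd1 (0.21 ± 0.06, 0.0132). In all 4 genes were lower in males: the glucose and dehydroascorbate transporter gene Slc2a1 (-0.50 ± 0.08, adjusted p = 0.000212), the glutathione transferases Gsto1 (-0.49 ± 0.07, 3.89e-05) and Gsto2 (-1.24 ± 0.40, 0.0401), and the ascorbate transporter gene Slc23a1 (-0.21 ± 0.06, 0.0133). The call of Slc23a1 was lost with median scaling (adjusted p = 0.266).

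Of 15 genes of fatty acid binding beside Fabp1, 7 were measured. Fabp3, the heart form, fell in Hyp by 0.50 ± 0.08 (adjusted p = 0.000932), and none passed limma's threshold for diet (2 unadjusted). For sex, Scp2 was higher in males (0.26 ± 0.05, adjusted p = 0.00178), while Fabp5 (-0.66 ± 0.09, 2.92e-05) and Fabp4 (-0.37 ± 0.10, 0.00948) were lower. The Fabp4 call was lost with median scaling (adjusted p = 0.0718).

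Of 8 genes of the albumin family and of albumin uptake, 6 were measured. None passed limma's threshold for genotype (2 unadjusted), and Afm, the albumin relative afamin, rose on low phosphate by 0.44 ± 0.08 (adjusted p = 0.00403), where Alb fell. For sex, Afm (-0.61 ± 0.08, adjusted p = 5.07e-06) and the albumin receptor genes Cubn (-0.52 ± 0.05, 2.28e-07) and Lrp2 (-0.28 ± 0.05, 0.000293) were lower in males. Amn, the partner of cubilin, was higher (0.23 ± 0.06, 0.00621).

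Of 18 liver transcription factors, 7 were measured. Nfe2l2, the regulator of the oxidative stress response, rose in Hyp by 0.25 ± 0.05 (adjusted p = 0.0109, 0.0576 with median scaling), and Ppara, the fatty acid sensor, fell on low phosphate by 0.46 ± 0.11 (0.0453). For sex, Nr1h4 (0.76 ± 0.08, adjusted p = 2.28e-07) and Cebpb (0.41 ± 0.09, 0.00291) were higher in males, and Cebpa (-0.46 ± 0.06, 5.15e-06) and Nfe2l2 (-0.32 ± 0.05, 0.000192) were lower.

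Of 15 genes of triglyceride and ester hydrolysis and storage, 12 were measured. In Hyp, Apob rose by 0.48 ± 0.12 (adjusted p = 0.0404), while the fatty acid transporter gene Cd36 fell by 0.32 ± 0.06 (0.00328) and the triglyceride synthesis gene Dgat2 by 0.28 ± 0.07 (0.0253). Mgll, monoglyceride lipase, rose on low phosphate by 0.33 ± 0.08 (adjusted p = 0.0497), a call lost with median scaling (0.142) and quantile normalization (0.0593). For sex 4 were higher in males, led by Cd36 (1.27 ± 0.06, adjusted p = 8.52e-13), with Lpl, Slc27a2 and Plin2 at 0.20 to 0.35. Mgll (-0.79 ± 0.08, 1.33e-07) and Aadac (-0.17 ± 0.05, 0.0187) were lower, and Aadac lost its call with median scaling (0.508).

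Because the 6 genes are abundant in liver, 37 hepatocyte markers were examined beside them, of which 31 were on the arrays. Of these 20 were never above the array median, and the 10 measured had no call for genotype by limma (2 unadjusted), with a median difference of 0.03. The markers were not uniform. Among the lowest, named after their values were seen, were Ahsg at 5.4 to 32.4, Hp at 5.3 to 54.2 and Arg1 at 2.9 to 82.2. Another 5 were above the median on most arrays: Apoc3 on 24, Serpina1c and Apoa2 on 23, Fgg on 20 and Ttpa on 19. Of 2 fibrinogen chain genes, Fgb lay between 2.7 and 112.2 and Fgg between 145.3 and 469.1. The Hyp minus normal difference of Fgg was 0.54 ± 0.15 and missed the threshold (adjusted p = 0.0845), as did that of Serpina1c (0.36 ± 0.11, 0.124). The summed signal of the 31 markers was 3009 to 4702 in normal pools (mean 3758) and 3021 to 5185 in Hyp pools (mean 4081). Group means on the control diet were 3829 in normal and 4523 in Hyp males, and 3600 in normal and 3653 in Hyp females. On low phosphate they were 3989 in normal and 4157 in Hyp males, and 3613 in normal and 3989 in Hyp females. The sum adds different probe sets, so those with high signal weigh most, and it was not tested.

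By diet the hepatocyte sum was 3021 to 5185 on the control diet (mean 3901) and 3009 to 4702 on low phosphate (mean 3937), where Alb was lower. The only diet call among the markers was a rise of Apoc3 (0.56 ± 0.09, adjusted p = 0.00176). By sex the sum was 3426 to 5185 in males (mean 4124) and 3009 to 4702 in females (mean 3714), where Fabp1 was higher. Of a family of near-identical genes that the probes may not separate, Serpina1b (3.71 ± 0.44, adjusted p = 2.54e-06) and Serpina1c (0.44 ± 0.11, 0.00857) were higher in males, and so was Apoh (2.23 ± 0.30, 1.4e-05). Apoa2 (-0.43 ± 0.12, 0.0169; 0.11 with median scaling and 0.0705 with quantile normalization) and Uox (-0.43 ± 0.11, 0.012) were lower.

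**Figure D4:**
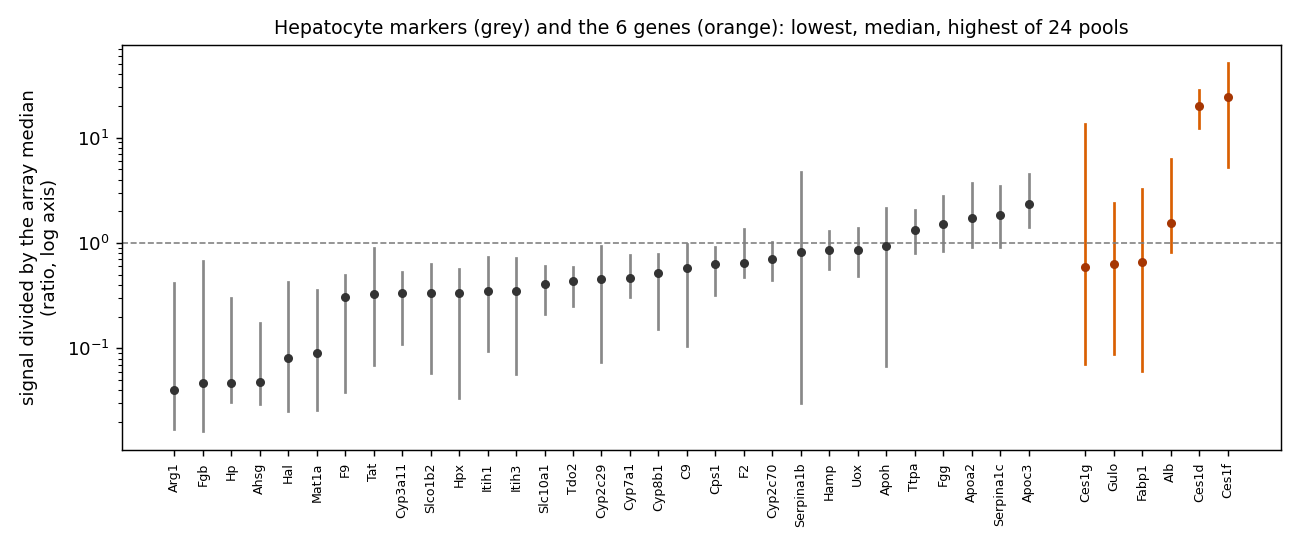
Signal divided by the median of its array (ratio, log axis) for 31 hepatocyte markers in grey and the 6 genes in orange, as the lowest, median and highest of 24 pools, with a dashed line at the array median. Each bar is read against that line and not against other genes: Ces1d and Ces1f lie wholly above it, as does the marker Apoc3. Of the markers, 20 lie wholly below it, among them Ahsg, Hp, Arg1 and Fgb. Serpina1c, Apoa2, Fgg and Ttpa have medians above it.

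Markers of other tissues were also read. The summed proximal tubule signal was 98170 to 126100 in normal pools and 93310 to 120300 in Hyp pools, and 3 of its 8 genes fell in Hyp: Slc5a2 by 0.64 ± 0.06 (adjusted p = 1.06e-06), Slc34a1 by 0.30 ± 0.06 (0.00741) and Slc22a6 by 0.23 ± 0.05 (0.0107). The last pair lost the call with median scaling (adjusted p = 0.0655 and 0.0609). With diet, Pck1 fell by 0.74 ± 0.09 (adjusted p = 7.14e-05) and Slc22a6 by 0.23 ± 0.05 (0.027), and Slc5a2 rose by 0.30 ± 0.06 (0.0182). For sex 2 of the 8 were higher in males and 3 lower. Of 5 other nephron genes, 1 rose in Hyp, none passed limma's threshold for diet (0 unadjusted) and 2 were lower in males. Both of these, Slc12a3 (0.0556) and Nphs1 (0.222), lost the call with median scaling, and Nphs1 also with quantile normalization (0.157).

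Fat markers had 2 measured genes, Adipoq and Retn, both lower in males (-0.63 ± 0.16 and -0.52 ± 0.09, adjusted p = 0.00906 and 0.000181). Their summed signal with the third marker was 330.5 to 617.1 in males and 519.1 to 836.1 in females. The members called lower in males were Ces1d, Fabp1 and Alb, of which Ces1d and Alb lost the call with median scaling. Intestine markers had 2 measured genes, Vil1 and Apoa4, both higher in males (0.58 ± 0.06 and 0.80 ± 0.25, adjusted p = 4.19e-07 and 0.0338). Fat and intestine markers had no call for genotype or diet by limma (1 unadjusted, an intestine gene for diet). Blood (1 measured), leukocyte (2) and adrenal (2) markers had no call for genotype, diet or sex by limma. Unadjusted, the blood gene passed for genotype and sex and 1 leukocyte gene for genotype. The summed blood signal was 131.8 to 367.0 in normal pools and 193.7 to 332.1 in Hyp pools, and the leukocyte sum was 361.3 to 703.5 and 387.8 to 629.9. The part of these markers in the members' differences was not tested.

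For each member the 3 named genes with the highest Pearson correlation of log2 signal over the 24 pools were listed, as a description, since the pools share groups and arrays. Those of Ces1g were Aldh1a7 (0.91), Rnf181 (0.89) and Anxa13 (0.87). Those of Gulo were the sulfate transporter gene Slc13a1 (0.94), the leukotriene C4 synthase gene Ltc4s (0.87) and Pla2g7 (0.86). Those of Fabp1 were Prkd1 (0.84), Pik3ip1 (0.80) and Efhd1 (0.78).

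Ces1d went most closely with Wsb1 (0.85), Pck1, the rate-limiting enzyme of gluconeogenesis (0.83), and Bag2 (0.77). Ces1f went with Crot (0.98), Atp11a (0.98) and the steroid hydroxylase gene Cyp7b1 (0.98), all of them higher in males by 1.11 to 5.54. Alb went with Tbrg1 (0.76), Gstm2 (0.76) and Vps39 (0.75). Among the members themselves, the correlations ranged from -0.46 for Ces1f and Fabp1 to 0.76 for Ces1f and Ces1g, and Ces1d, from the same cluster as both, had -0.20 with Ces1f and 0.11 with Ces1g.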

How the data were processed

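Kidney RNA of 24 pools was extracted with TRIzol, labelled with biotin and hybridised to 430A and 430B arrays, per the labels' protocols. The authors deposited 1 table for each array, holding a linear signal intensity for every probe set. They used GCOS 1.2, per the submitters' processing notes. The algorithm behind the signals, with its scaling target and mask, is not given in the sources used here. Both chips share 100 probe sets, whose trimmed mean was 1200 on every array, so the deposited intensity was already scaled. Precision is limited by the number of arrays.

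Symbols came from the platform annotation, updated through Entrez identifiers against GRCm38.p6 (34837 of 45137 probe sets that are not controls matched). Probe sets above the array median on at least 3 of 24 arrays were kept, and a gene was read from whichever kept probe set had the highest mean log2 signal (430A first). Signals floored at 1 were taken to log2 and fitted per chip in R 4.3.3 with limma 3.58.1 (lmFit, eBayes), with 8 group means and 16 residual degrees of freedom. The procedure was tested on simulated data. Named genes were all members, list members past the threshold (at most 6 a list and comparison) and the 3 genes most correlated with each member. A few list genes outside the threshold were named after their values were seen. The members and lists were chosen with earlier results of these data known. The alternatives were a pseudocount of 50, no filter, a stricter filter of 12 arrays, median scaling, quantile normalization, a replicate block, adjustment within each chip, other probe sets, a variance trend with robust estimation, and leaving out each pool. Pools of the same number deviated together at r = -0.052 to 0.0871, and 0 of 84 pairs exceeded 0.1. Yet 17 of the 24 pools correlated best with a pool of their own number, so these values do not justify leaving the numbers out. The main fit left them out, and the replicate block entered them.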

Additional observations from a re-analysis of the deposited data

How the results depend on the processing

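Of the single-gene values under settings that kept all pools, 272 counted as unchanged, 9 lost a call, 6 gained one and 1 moved. Unchanged meant the same side of the threshold or, for genotype, a shift smaller than the spread between pools of a group. Several settings, such as adjustment within each chip, cannot move a genotype difference, so those values could only count as unchanged. The fit of all probe sets without the filter entered this tally only for the other probe sets. Calls that a main probe set lost there, as Alb did for diet, are not among the 9. No called value changed direction, but values without a call could. For diet by sex Fabp1 had -1.37 with its main probe set and 1.40 with its second, and neither passed. With the stricter filter 3 members could be tested: 3 of 3 had a positive genotype difference and 3 passed for sex. There 1169 of 15167 features were called higher in males and 1841 lower. With median scaling 3 members passed for sex, while 1695 of 18642 features were called higher in males and 970 lower. For genotype by sex, 1 member (Ces1g) passed instead of 0 with adjustment within each chip, a variance trend with robust estimation, median scaling, a pseudocount of 50 or the replicate block. These settings kept the filter, which Ces1g passed only through male pools, and nothing is read from the call. With the replicate block the members past the threshold were 4 for diet, 5 for sex, 0 for genotype by diet and 0 for diet by sex, and the Ces1g genotype by sex difference had an adjusted p of 0.0151. What the pool numbers stand for is not stated. Deviations of pools from their group means correlated at a median of 0.0282 within a number and -0.0149 between numbers. Of the 24 pools, 17 correlated best with a pool of their own number, so a small shared effect of the number cannot be set aside.

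Leaving out each pool in turn gave 3 to 5 members for diet, 4 to 5 for sex, 0 to 1 for genotype by sex, 0 for genotype by diet and for diet by sex, and 6 with a positive genotype difference. The share of all features is not given for these fits. Over all features the diet calls numbered 144, and 94 without the filter. With the replicate block 103 features were called higher on low phosphate and 82 lower, against 78 and 66 in the main fit. For sex 1224 were called higher in males and 2026 lower, against 1131 and 1823. With the variance trend, genotype by diet had 8 calls instead of 3, genotype by sex 28 instead of 15, and diet by sex 3 instead of 0. Diet by sex had 1 call without the filter and 1 with the pseudocount. Median scaling moved the median genotype by diet value of all features from 0.05 to -0.05, and that of Ces1d from 0.58 to 0.52. Signal over background limits Gulo, Fabp1 and female Ces1g, whose log2 differences rest on values near or below the array median. The cause of these changes was not tested.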
